A study of Rattus norvegicus with 6 samples.

Results

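The miR-181 family is a group of miRNAs named by the letters a, b, c and d. Its members here were the names in the count table that carry the rat prefix and the stem miR-181 followed by one of these letters, with every copy and both arms. The rule found 10 of the 910 names listed, 4 of them from the 5p arm of the precursor and 6 from the 3p arm. Small RNA was sequenced from the capsular membrane of 6 lenses of Sprague Dawley rats, labelled lens capsules, with 3 libraries from the control group and 3 from the Na2SeO3 group. Sodium selenite, at 20 μmol/kg, was given to the Na2SeO3 group by 3 subcutaneous injections, on days 3, 5 and 7, and the control group was given saline. The methods describe 8-day-old pups and lenses taken on day 15 of the experiment. The labels name no genetic change in either group, and selenite cataract is an acute chemical model in young animals rather than a cataract of age.

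A miRNA gene is transcribed into a hairpin, and cutting of the hairpin releases a short duplex of a 5p and a 3p strand, of which one strand is usually kept in the Argonaute complex and guides it to target mRNAs while the other is mostly degraded. Pairing of bases 2 to 8, the seed, does most to select the targets. The miR-181 family is known for setting the sensitivity of T lymphocytes to antigen, for a role in the differentiation of muscle, and for its abundance in the inner layers of the retina, where miR-181a and miR-181b act on genes of mitochondrial turnover.

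The mature sequences are shown first because the counting of reads depends on how far the members differ. They were taken from RefSeq on build GRCr8, which held 9 of the 10 names, rno-miR-181b-2-3p being the other. Letters in capitals are the seed, and all sequences run 5′ to 3′. The 5p members were:
rno-miR-181a-5p: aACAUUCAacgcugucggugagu
rno-miR-181b-5p: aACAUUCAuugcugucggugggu
rno-miR-181c-5p: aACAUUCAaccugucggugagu
rno-miR-181d-5p: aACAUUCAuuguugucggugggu

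All 4 share the seed ACAUUCA, and no other of the 693 mature rat names in the RefSeq table carried it. Outside the seed the members form pairs. With positions counted from 1 at the 5′ end, miR-181a-5p and miR-181b-5p differed by the substitutions A9U, C10U and A21G, whereas miR-181b-5p and miR-181d-5p differed by C12U alone. miR-181c-5p was identical to miR-181a-5p except that the base at position 11 was absent. A read cut short or misread at these positions can therefore be counted under the partner name, and how the authors' counting handled such reads was not tested.

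The 3p strands carry other seeds. They are shown because they tell apart the gene copies that give the same 5p strand:
rno-miR-181a-1-3p: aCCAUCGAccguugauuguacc
rno-miR-181a-2-3p: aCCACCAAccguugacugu
rno-miR-181c-3p: aCCAUCGAccguugaguggacc
rno-miR-181b-1-3p: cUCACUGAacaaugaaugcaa
rno-miR-181d-3p: cCACCGGGggaugaauguca

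miR-181a-1-3p and miR-181c-3p shared the seed CCAUCGA, with the substitutions U16G and U19G between them. The other 3p seeds were found in no other mature rat name of the table.

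The family lies at 3 loci of GRCr8 with a pair of genes at each, all on the plus strand. The build behind the count table is not named, so these positions belong to the RefSeq sequences. Mir181a-1, with miR-181a-5p at chr13:52037081-52037103, is followed directly by Mir181b1, with miR-181b-5p at chr13:52037263-52037285. Both lie within the span of the lncRNA LOC108352541, and the next gene is Ptprc, which encodes the leukocyte surface phosphatase CD45. Mir181a2, with a second copy of miR-181a-5p at chr3:43025601-43025623, is followed by Mir181b2, whose hairpin also contained the miR-181b-5p sequence. Both lie within the span of the nuclear receptor gene Nr6a1 and of the lncRNA LOC120101539. Mir181c, with miR-181c-5p at chr19:40888314-40888335, is followed by Mir181d, with miR-181d-5p at chr19:40888484-40888506. These overlapped no other annotated gene, and the next gene is Nanos3. The 5p counts of letters a and b can hence come from the chromosome 13 and the chromosome 3 locus. Mir3570 overlaps Mir181a-1, and its miRNA rno-miR-3570 was listed at 0 in all 6 libraries.

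The libraries held 1806596 to 2829903 counts in the control group and 663096 to 968151 in the Na2SeO3 group. The raw read numbers given in the paper differ less between the groups than these counts. A smaller part of the reads was therefore counted under a miRNA name in every Na2SeO3 library than in every control library. The reason, and its effect on the levels, shares and ratios below, was not tested. A name needed 1.06 to 1.66 CPM (counts per 1000000 counts of a library) in the control group, or 3.10 to 4.52 CPM in the Na2SeO3 group, to reach 3 counts, a limit that covers counting error only because the reads carry no molecular identifiers. The values below are CPM after TMM scaling, a scaling that assumes that the bulk of miRNAs keeps its level. Of the names, 341 had enough counts for edgeR's quasi-likelihood test, and 56 were differentially expressed miRNAs (DEmiRNAs), with a Benjamini-Hochberg adjusted p-value under 0.05 and an absolute log2 fold change over 1. Of these, 39 were up-regulated and 17 down-regulated, against 53 and 10 with library size as the only scale and 32 and 22 with upper-quartile scaling. Nothing in the labels ties the libraries to a batch.

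Over the family as a whole the levels of the groups overlapped. The summed level of the 10 members was 10829, 10032 and 11274 CPM in control libraries 1 to 3 and 11690, 11404 and 9900 CPM in Na2SeO3 libraries 1 to 3. The group means were 10712 ± 629 and 10998 ± 961 CPM (SD, n = 3 each). As a share of all counts the members held 0.934% to 1.11% of control and 1.03% to 1.30% of Na2SeO3 libraries. In bulk samples such as these, fewer cells of a type and less RNA per cell cannot be told apart.

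Within this sum the members differed widely in level. miR-181a-5p ranked 19 of the 341 by mean level, miR-181b-5p 41, miR-181d-5p 91, miR-181a-1-3p 105, miR-181a-2-3p 200, miR-181c-5p 204 and miR-181c-3p 271. The order a, b, d, c of the 5p strands held in each of the 6 libraries. miR-181a-2-3p and miR-181c-5p were neighbours whose levels did not differ beyond their spread, and the other neighbours in this order did not overlap within either group. CPM was not divided by length, since the mature strands are all of 19 to 23 bases, and adapters join some small RNAs better than others, so levels of different miRNAs compare only roughly.

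**Figure D1:**
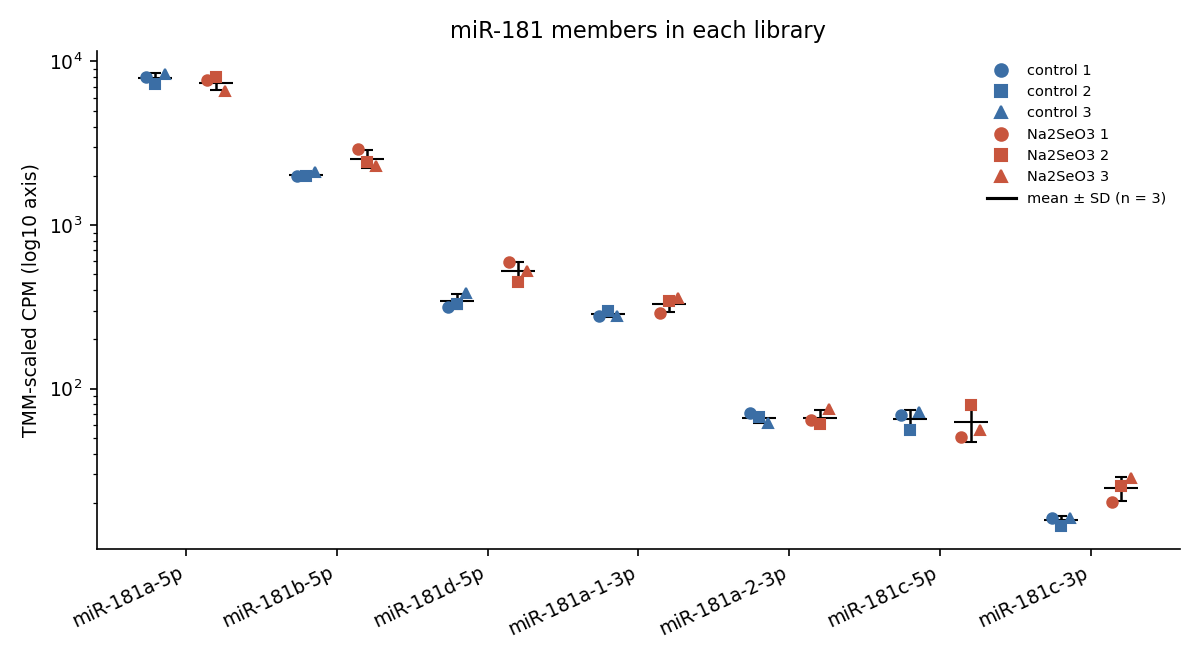
TMM-scaled CPM on a log10 axis of the 7 tested miR-181 members in each of the 6 libraries, with bars for the mean ± SD of 3 libraries. Blue control and red Na2SeO3 libraries lie apart without overlap for miR-181b-5p, miR-181d-5p and miR-181c-3p and overlap for the other 4.

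Of the 10 members, 7 had enough counts to be tested, all 4 from the 5p arm and 3 from the 3p arm. One of the 7 (14.3%), miR-181d-5p, had an edgeR adjusted p-value under 0.05, and it was higher in the Na2SeO3 group. Of all miRNAs tested 34.6% passed in either direction and 20.8% in that direction, and the members' share was not tested against either. With library size as the only scale 3 of the 7 were called, all higher in the Na2SeO3 group, where 37.2% of all miRNAs tested passed in either direction and 28.4% in that direction. In 3 of the 7 (42.9%) the groups did not overlap, against 46.3% of all miRNAs tested. None of the 7 was a DEmiRNA by edgeR or by DESeq2, whereas 16.4% of all miRNAs tested were by edgeR. At an unadjusted p-value under 0.05 there were 2 members, miR-181d-5p and miR-181c-3p, and 151 of all miRNAs tested. The fitted log2 fold change was above 0 in 4 members and below 0 in 3, with a median of 0.22 against 0.08 for all miRNAs tested.

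miR-181d-5p, the guide strand of the Mir181d gene, was the member that rose. Its level was 316, 328 and 383 CPM in control libraries 1 to 3 and 593, 450 and 526 CPM in Na2SeO3 libraries 1 to 3, from 592 to 915 and from 407 to 496 counts. Every Na2SeO3 library lay above every control library, as in 25.2% of all miRNAs tested. On average the control group stood at 342 ± 35.8 and the Na2SeO3 group at 523 ± 71.2 CPM (SD, n = 3 each). The fitted rise was 1.53-fold, 0.61 on the log2 scale (standard error 0.17, 95% interval 0.25 to 0.97, adjusted p = 0.0124, edgeR). The log2 fold change ranked 72 from the top of 341. The call was lost without control library 1 (log2 fold change 0.56, adjusted p = 0.0708) and without control library 2 (0.58, adjusted p = 0.0600, edgeR).

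miR-181b-5p, which comes from both Mir181b1 and Mir181b2, showed a smaller difference of the same sign. Its level was 2001, 2000 and 2106 CPM in control libraries 1 to 3 and 2918, 2434 and 2292 CPM in Na2SeO3 libraries 1 to 3. The groups did not overlap, but the Na2SeO3 libraries spread over a wider range than the control libraries. Averages were 2036 ± 60.7 in the control and 2548 ± 328 CPM in the Na2SeO3 group (SD, n = 3 each). The fitted difference, 0.32 on the log2 scale, missed the threshold (standard error 0.15, 95% interval -0.01 to 0.65, adjusted p = 0.118, edgeR). With library size as the only scale, which shifted the median of the whole table to 0.27 from 0.08, the log2 fold change was 0.52 (adjusted p = 0.0171, edgeR). Without Na2SeO3 library 1 it was 0.19 (adjusted p = 0.384, edgeR).

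miR-181a-5p, by far the most abundant member and the product of Mir181a-1 and Mir181a2, did not pass. Its level was 8071, 7267 and 8352 CPM in control libraries 1 to 3 and 7750, 8003 and 6562 CPM in Na2SeO3 libraries 1 to 3. The groups overlapped, with the lowest value in Na2SeO3 library 3. The control mean was 7897 ± 563 CPM and the Na2SeO3 mean 7438 ± 769 CPM (SD, n = 3 each), and the log2 fold change was -0.09 (standard error 0.14, 95% interval -0.40 to 0.23, adjusted p = 0.706, edgeR), which turned to 0.11 with library size as the only scale. Leaving out 1 library moved it between -0.14 (without Na2SeO3 library 1) and -0.0064 (without Na2SeO3 library 3), and it passed in none of these 6 fits.

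miR-181c-5p, whose gene lies beside Mir181d, did not pass. Its level was 68.7, 55.9 and 71.8 CPM in control libraries 1 to 3 and 51.0, 79.9 and 56.1 CPM in Na2SeO3 libraries 1 to 3, so that both the lowest and the highest value lay in the Na2SeO3 group. Between 35 and 199 counts lay behind these values. The log2 fold change was -0.06 (standard error 0.22, 95% interval -0.53 to 0.42, adjusted p = 0.862, edgeR), and its sign turned with library size as the only scale, at 0.15, and without control library 3, Na2SeO3 library 1 or Na2SeO3 library 3.

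The tested 3p strands came from miR-181a and miR-181c. miR-181a-1-3p was at 278, 297 and 278 CPM in control libraries 1 to 3 and at 291, 342 and 359 CPM in Na2SeO3 libraries 1 to 3. The groups overlapped by the narrow margin between control library 2 and Na2SeO3 library 1, and the difference of 0.22 on the log2 scale missed the threshold (standard error 0.16, 95% interval -0.12 to 0.55, adjusted p = 0.313, edgeR). It was 0.41 with library size as the only scale (adjusted p = 0.0669, edgeR) and 0.13 with upper-quartile scaling (adjusted p = 0.554, edgeR). miR-181a-2-3p was at 71.2, 66.7 and 61.5 CPM in the control libraries and at 64.1, 60.8 and 74.8 CPM in the Na2SeO3 libraries. Its groups lay over each other, with a log2 fold change of 0.00 (95% interval -0.41 to 0.41, adjusted p = 0.995, edgeR), which was 0.18 with library size as the only scale.

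miR-181c-3p had the largest fitted difference of the family and few counts behind it. Its level was 16.2, 14.5 and 16.2 CPM in control libraries 1 to 3 and 20.4, 25.4 and 28.6 CPM in Na2SeO3 libraries 1 to 3. The groups did not overlap, although Na2SeO3 library 1 held only 14 counts and the others of both groups 25 to 47. The control mean was 15.6 ± 0.996 CPM and the Na2SeO3 mean 24.8 ± 4.14 CPM (SD, n = 3 each), and the difference of 0.67 on the log2 scale missed the threshold (standard error 0.27, 95% interval 0.10 to 1.25, adjusted p = 0.0668, edgeR). It passed when at least 10 counts were required in every library (adjusted p = 0.0413) and with library size as the only scale (log2 fold change 0.86, adjusted p = 0.0234, edgeR). Relative to miR-181a-1-3p, whose sequence is closest to it, miR-181c-3p had a ratio of 0.0557 in the control group and 0.0762 in the Na2SeO3 group (geometric means), and the groups did not overlap in it.

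The other 3 members were at the limit of the depth. miR-181b-1-3p had 11, 4 and 6 counts in the control libraries and 2, 5 and 1 in the Na2SeO3 libraries. miR-181b-2-3p had 8, 2 and 2 counts in the control libraries and 0, 4 and 1 in the Na2SeO3 libraries. A single count of miR-181d-3p was found, in control library 3. A difference between the groups was not detectable at this depth for these strands.

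**Figure D2:**
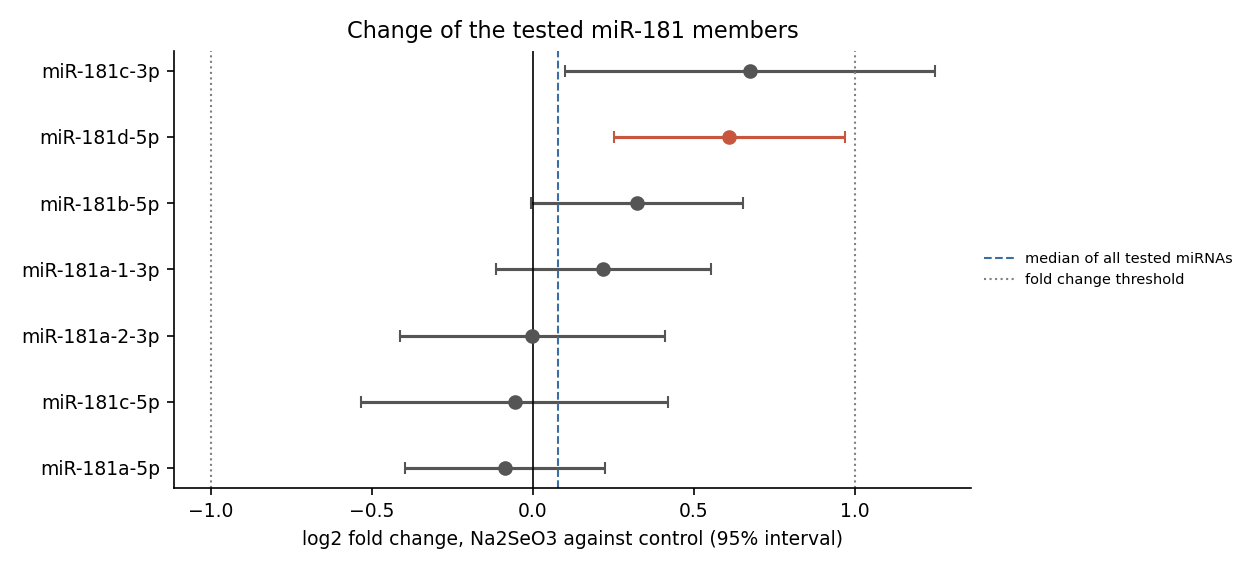
Log2 fold change of the Na2SeO3 group against the control group for the 7 tested members, with 95% intervals from edgeR's quasi-likelihood test. Red marks miR-181d-5p, the member past an adjusted p-value of 0.05, the dashed line is the median of all miRNAs tested (0.08) and dotted lines are the fold change threshold.

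The share of each member among the 5p counts does not depend on how libraries are scaled, though it rests on how reads were assigned to near-identical names and on how well each strand was captured. miR-181a-5p took 77.2%, 75.3% and 76.5% in the control libraries, in order, and 68.5%, 73.0% and 69.5% in the Na2SeO3 libraries. All 3 Na2SeO3 libraries lay below the control libraries, with means of 76.3% ± 0.957 and 70.3% ± 2.34 (SD, n = 3 each). miR-181b-5p took 19.1%, 20.7% and 19.3% in the control libraries and 25.8%, 22.2% and 24.3% in the Na2SeO3 libraries, with means of 19.7% ± 0.874 and 24.1% ± 1.81 (SD, n = 3 each). Here every Na2SeO3 library lay above every control library. The same held for miR-181d-5p, at 3.02%, 3.40% and 3.51% in the control libraries and 5.24%, 4.11% and 5.57% in the Na2SeO3 libraries, with means of 3.31% ± 0.255 and 4.97% ± 0.769 (SD, n = 3 each). miR-181c-5p stayed under 1% in every library, with means of 0.631% ± 0.0456 and 0.591% ± 0.139 (SD, n = 3 each) that overlapped.

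The 3 shares whose groups did not overlap each had p = 0.1 in a two-sided exact permutation test, the smallest p that 3 libraries against 3 allow, and p = 0.133 after adjustment over the 4 shares. The share of miR-181c-5p had p = 0.8 in the same exact test. The shares sum to the whole, so the 4 differences are not independent of each other. When each library in turn was left out, the difference between the group means stayed between -7.31 and -5.08 percentage points for miR-181a-5p, 3.52 and 5.33 for miR-181b-5p, and 1.36 and 2.10 for miR-181d-5p.

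**Figure D3:**
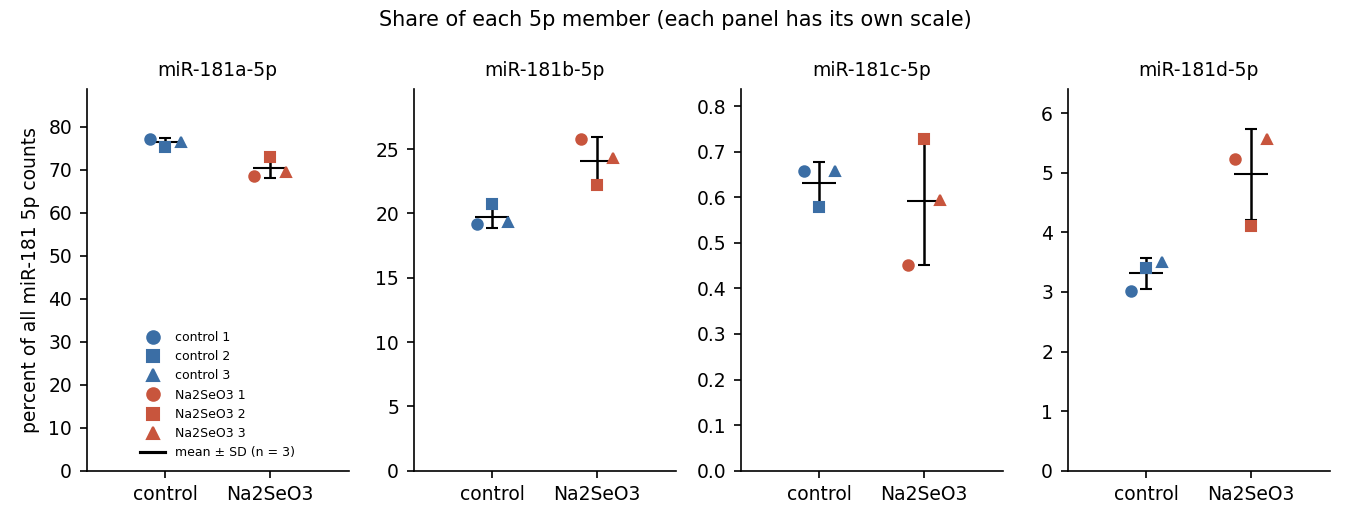
Percent of all miR-181 5p counts taken by each 5p member in each library, with bars for the mean ± SD of 3 libraries and a scale of its own in each panel. The Na2SeO3 libraries lie below the control libraries for miR-181a-5p (68.5% to 73.0% against 75.3% to 77.2%), above them for miR-181b-5p and miR-181d-5p, and across them for miR-181c-5p.

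The members whose share was higher in the Na2SeO3 group, miR-181b-5p and miR-181d-5p, are the pair of sequences that differ by C12U alone, and they come from different loci. Together they took 22.2%, 24.1% and 22.8% of the 5p counts in the control libraries (1 to 3, in order), against 31.0%, 26.3% and 29.9% in Na2SeO3 libraries 1 to 3. This grouping was made after the values were seen and is given without a test. The ratio of miR-181d-5p to miR-181b-5p was 0.168 in the control group and 0.205 in the Na2SeO3 group (geometric means), and the groups did not overlap in it either. The ratio of miR-181c-5p to miR-181a-5p was 0.00829 and 0.00833, with overlap. Across the 6 libraries the log2 CPM of miR-181b-5p and miR-181d-5p correlated at Pearson's r = 0.91 and those of miR-181a-5p and miR-181c-5p at 0.62, whereas the neighbours miR-181c-5p and miR-181d-5p correlated at -0.40. These values are descriptions over 6 libraries that share their scaling. They pool both groups, so the group differences of miR-181b-5p and miR-181d-5p enter their correlation.

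Guide strands of genes that lie side by side were set against each other as ratios, with no test. The ratio of miR-181b-5p to miR-181a-5p was 0.258 in the control group and 0.342 in the Na2SeO3 group (geometric means over 3 libraries). On the log2 scale it was -2.01, -1.86 and -1.99 in the control libraries (1 to 3, in order), against -1.41, -1.72 and -1.52 in the Na2SeO3 libraries, without overlap. The ratio of miR-181d-5p to miR-181c-5p was 5.22 in the control group and 8.43 in the Na2SeO3 group, but Na2SeO3 library 2 lay within the control range, so the groups overlapped.

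Among the 3p strands of miR-181a, which can be told apart by locus, the strand of the chromosome 13 copy had more counts than that of the chromosome 3 copy. miR-181a-1-3p took 79.6%, 81.7% and 81.9% of the miR-181a 3p counts in the control libraries (1 to 3, in order), against 82.0%, 84.9% and 82.7% in Na2SeO3 libraries 1 to 3. The means were 81.1% ± 1.23 and 83.2% ± 1.53 (SD, n = 3 each), and control library 3 and Na2SeO3 library 1 were next to each other at the border of the groups.

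The ratio of the 5p to the 3p arm sets the strands of a precursor against each other. For miR-181a and miR-181b it pools both gene copies, since the 5p name is shared and 2 names were summed for the 3p arm, while miR-181c has 1 name for each arm. The ratio was 22.5 for miR-181a, 408 for miR-181b and 4.12 for miR-181c in the control group (geometric means, with 0.5 counts added to each arm), so the 5p strand was the more abundant in each and least so in miR-181c. In the Na2SeO3 group the ratios were 18.7, 574 and 2.45. For miR-181d no ratio was formed, because its 3p arm had 1 count in all.

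For miR-181c the log2 ratio was 2.07, 1.93 and 2.13 in the control libraries (1 to 3, in order), against 1.29, 1.63 and 0.96 in the Na2SeO3 libraries. Every Na2SeO3 library lay below every control library, with means of 2.04 ± 0.10 and 1.30 ± 0.34 (SD, n = 3 each). A two-sided exact permutation test gave p = 0.1, the smallest possible, which was 0.3 after adjustment over 3 ratios. For miR-181a the log2 ratio was 4.53, 4.32 and 4.62 in the control libraries and 4.44, 4.31 and 3.92 in the Na2SeO3 libraries, which overlapped (exact permutation test, p = 0.2, n = 3 per group). For miR-181b the 3p arms summed to 2 to 19 counts per library and the log2 ratio ranged from 8.14 to 9.70, with overlap (exact permutation test, p = 0.5, n = 3 per group).

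**Figure D4:**
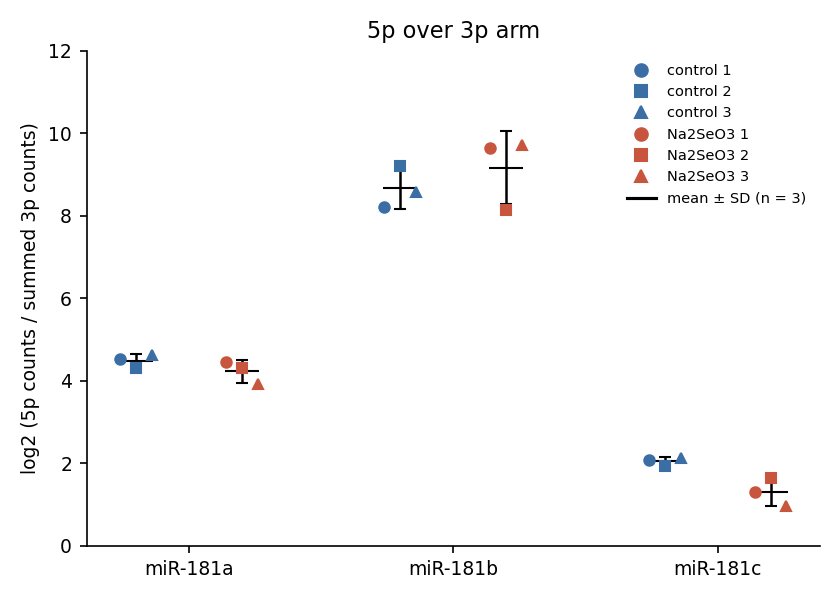
Log2 ratio of 5p counts to summed 3p counts for miR-181a, miR-181b and miR-181c in each library, with bars for the mean ± SD of 3 libraries. The groups lie apart for miR-181c only, at 1.93 to 2.13 in the control libraries and 0.96 to 1.63 in the Na2SeO3 libraries.

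Other families with several gene copies were set beside miR-181 in the same fit, without a test between families. The median log2 fold change was 0.22 over the 7 tested miR-181 members and 0.02 over 17 tested names of the let-7 and miR-98 family, of which 2 rose and none fell by edgeR (adjusted p under 0.05), against 20.8% of all miRNAs tested that rose and 13.8% that fell. The median was -0.24 over 11 names of the miR-30 family, where 3 fell, and -0.23 over 2 names of the miR-26 family, where 1 fell. The miR-29 family, where 3 of 4 names fell and the median was -1.27, and the miR-200 family, where 5 of 6 fell and the median was -0.98, lay furthest from miR-181.

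**Figure D5:**
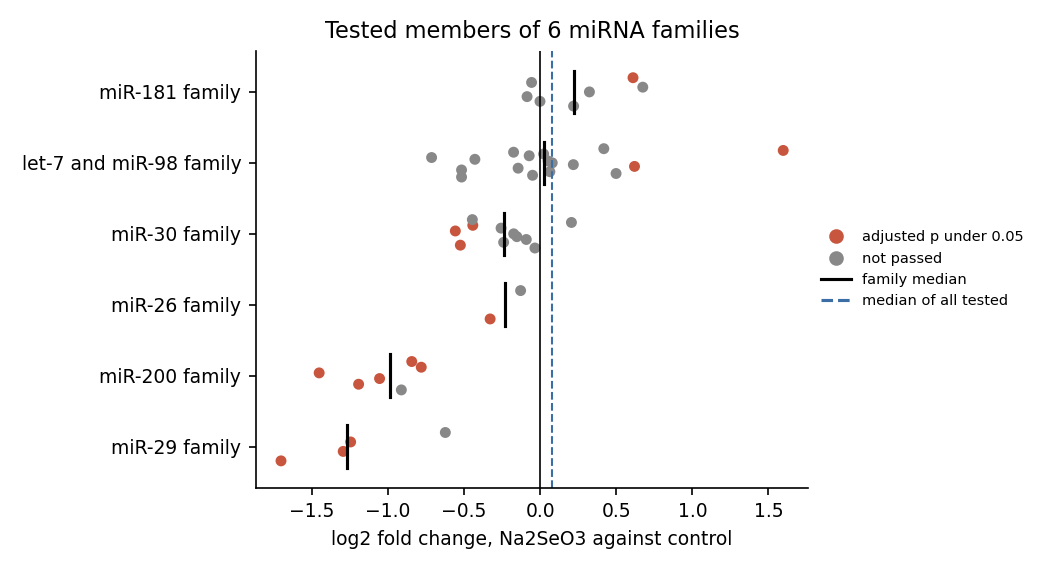
Log2 fold change of the Na2SeO3 group against the control group for every tested name of 6 miRNA families, with black lines for the family medians and a dashed line for the median of all miRNAs tested. The miR-181 names lie between -0.09 and 0.67, while all tested names of the miR-29 and miR-200 families lie below 0.

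Markers of the cells that a lens capsule sample could hold were read from the same fit. In that fit 20.8% of all miRNAs tested rose and 13.8% fell (adjusted p under 0.05, edgeR). The lens and eye miRNAs miR-184, miR-204-5p, miR-211-5p and miR-26a-5p were abundant in every library, with summed levels of 131918 to 147927 CPM in the control group and 78100 to 91745 CPM in the Na2SeO3 group, and 2 of the 4 fell. The surface epithelium miRNAs miR-205 and miR-203a-3p both fell, from a sum of 4786 to 5180 CPM to a sum of 2247 to 2392 CPM. Muscle miRNAs were present as well, and all 4 listed, miR-1-3p, miR-133a-3p, miR-133b-3p and miR-206-3p, rose, from a sum of 6374 to 8151 CPM to a sum of 12847 to 14196 CPM. Not on that list were miR-1b and miR-133a-5p, and neither passed. The groups of miR-1b overlapped, with means of 12339 and 14598 CPM (log2 fold change 0.24, adjusted p = 0.273, edgeR). Those of miR-133a-5p did not overlap (log2 fold change 0.59, adjusted p = 0.157, edgeR). Of the 5 neuron and retina miRNAs (miR-124-3p, miR-9a-5p, miR-9a-3p, miR-137-3p and miR-128-3p), 4 were tested and miR-9a-5p rose, with sums of 30092 to 37494 CPM in the control group and 36896 to 46742 CPM in the Na2SeO3 group that overlapped. The neural miRNA miR-129-5p, which was not on that list and was added after its values were seen, fell, with means of 5085 and 3760 CPM (log2 fold change -0.44, adjusted p = 0.0356, edgeR). The names miR-129-1-3p and miR-129-2-3p, which hold the same counts, fell as well (log2 fold change -0.77, adjusted p = 0.00612, edgeR).

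Lists for blood cells, glia and vessels were read the same way. None of the 5 leukocyte miRNAs (miR-142-3p, miR-142-5p, miR-223-3p, miR-150-5p and miR-155-5p) passed by edgeR, and their sums overlapped at 153 to 190 CPM and 122 to 180 CPM. Of 3 erythrocyte miRNAs 2 were tested and miR-486 rose, with sums of 246 to 301 CPM and 394 to 511 CPM. The other, miR-451-5p, did not pass, with means of 128 and 133 CPM (log2 fold change 0.06, adjusted p = 0.833, edgeR), and miR-144-3p had 0 to 4 counts per library. Of the oligodendrocyte pair miR-219a-2-3p rose and miR-338-3p did not pass (log2 fold change -0.93), with sums of 26.9 to 32.4 CPM and 85.8 to 93.5 CPM. Neither endothelium miRNA, miR-126a-3p or miR-126a-5p, passed, with sums of 20586 to 26070 CPM and 25203 to 30518 CPM. The sums of the muscle, erythrocyte and oligodendrocyte lists, the erythrocyte sum through miR-486, were higher in every Na2SeO3 library than in every control library, as was the level of miR-181d-5p, and the sums of the lens and eye and the surface epithelium lists were lower in every Na2SeO3 library. Their part in the rise of miR-181d-5p was not tested.

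The miRNAs outside the family whose log2 CPM followed miR-181a-5p most closely over the 6 libraries were a predicted miRNA listed without a species (Pearson's r = 0.90), rno-miR-211-3p (0.89), rno-miR-141-3p (0.89), rno-miR-30e-5p (0.89) and rno-miR-140-5p (0.85). None of these 5 had an edgeR adjusted p-value under 0.05. The highest of 334 values is high by selection with 6 libraries, so the order is a description only.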

How the data were processed

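Small RNA reads of 6 lens capsule libraries, 3 control and 3 Na2SeO3 (titled WT and Model), were filtered by the authors with Cutadapt and Fqtrim, checked with FastQC, and compared with the Ensembl rat genome with miRDeep (the methods also name HISAT2). The genome build and tool versions are not given in the sources used here. The deposited values are raw read counts per miRNA name, without normalization or pooling. Libraries were grouped by their titles. Names with too few counts were removed with filterByExpr (minimum count 10), libraries were scaled with TMM, and edgeR's quasi-likelihood test without covariates was applied to 341 names. Standard errors were derived from the F statistics, and a prior count of 2 was used for log2 CPM. Two-sided exact permutation tests were used for shares and arm ratios. The edgeR fit was tested on simulated counts with known changes, which were larger than those fitted for any member. Tools were R 4.3.3, edgeR 4.0.16, DESeq2 1.42.0, Python 3.11.15 and scipy 1.17.1. Each animal gave 1 lens, and p-values measure the spread between these libraries. No library was a copy of another, with a chi-square over degrees of freedom of at least 28.0 for every pair.

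The members, families and marker lists were chosen with earlier results of these data known. Named miRNAs were all members, the 5 names most correlated with miR-181a-5p, names of other species that contain miR-181 and rat names with the same seed. The only name of another species was gga-miR-1811, a different miRNA with 24 counts in Na2SeO3 library 3 alone. Alternatives were other scalings and filters, DESeq2, the replicate number as a block, leaving out each library and another count added in the arm ratios. The mRNA libraries are not analysed here.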

Additional observations from a re-analysis of the deposited data

How the results depend on the processing

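The rise of miR-181d-5p kept its direction under all 13 alternatives and passed in 11. With each library left out its log2 fold change was 0.49 to 0.71, and the calls lost without control library 1 or 2 leave 0 to 1 members called in these fits. With library size as the only scale 3 members were called (miR-181b-5p at 0.52, miR-181c-3p at 0.86 and miR-181d-5p), all 3 higher in the Na2SeO3 group. So were 28.4% of all miRNAs tested, at a median log2 fold change of 0.27 over the table. At this scale the signs of miR-181a-5p (0.11), miR-181a-2-3p (0.18) and miR-181c-5p (0.15) turned. The mean family level was then 10027 CPM in the control and 11793 CPM in the Na2SeO3 group. The order of these means turned with upper-quartile scaling (11037 CPM in the control and 10685 CPM in the Na2SeO3 group) and with RLE, another scaling (10922 and 10796 CPM). It also turned without control library 2 and without Na2SeO3 library 1. Requiring 10 counts in every library called 2 members, with miR-181c-3p at 0.65, and 41.2% of all miRNAs tested (22.9% higher in the Na2SeO3 group). With each library left out, miR-181a-2-3p ranged from -0.11 to 0.059, miR-181c-5p from -0.29 to 0.031, and the difference in the share of miR-181c-5p from -0.11 to 0.030 percentage points. None of these members passed in such a fit, and the causes were not tested. Of 206 recomputed values 182 were taken as unchanged. For log2 fold changes this meant the same direction and call, and for family levels a move smaller than the SD between replicates. For counts it meant a move within 1.5 times, and for shares and arm ratios the same direction only, whatever the size. The members called in either direction and those called higher in the Na2SeO3 group had equal counts in every setting, so these values repeat each other. The labels do not say whether the replicate numbers shared by both groups pair the libraries. Same-numbered deviations correlated at -0.17, -0.18 and -0.26, without differently numbered libraries set beside them, so the question was not settled. With the number as a block 49 miRNAs were DEmiRNAs and 1 member was called, miR-181d-5p at 0.61 (adjusted p = 0.0283, edgeR). Depth limits the 3p strands of miR-181b and miR-181d, which could not be tested.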
